A study of Mus musculus with 6 samples.

Results

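The genes described here are 10 ligands and receptors of the VEGF and angiopoietin systems: the VEGF receptors Flt1, Kdr and Flt4, the co-receptor Nrp1, the angiopoietin receptor Tek with its relative Tie1, and the ligands Vegfa, Vegfb, Angpt1 and Angpt2. They were chosen by symbol, and all 10 were found among the 18283 genes of the deposited table and were expressed highly enough to be tested. Their transcripts were measured by RNA sequencing in mouse cortex with 3 libraries per group. The AAV-GFP-GA group had been given an adeno-associated viral vector (AAV) for a fusion of green fluorescent protein (GFP) with poly-GA, and the AAV-GFP group had been given AAV for GFP alone. All libraries of both groups are labelled as wild type and with a time of 5 months. Poly-GA is a glycine and alanine repeat protein translated from the expanded repeat of the C9orf72 gene in familial motor neuron disease and frontotemporal dementia. The promoter of the vectors, the route of injection, the age and sex of the mice and whether 1 library is 1 animal are not stated by the labels, and p-values therefore measure the spread between these libraries only. Where 3 values of a group are listed, they stand in the order of replicates 1, 2 and 3.

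VEGF ligands bind receptor tyrosine kinases on endothelial cells and drive vessel growth and permeability. KDR (also called VEGFR2) carries most of the signal, FLT1 (VEGFR1) binds VEGF-A more tightly but signals weakly and so limits it, and FLT4 (VEGFR3) serves VEGF-C and VEGF-D. Angiopoietin-1 from cells around the vessel activates the receptor TEK (TIE2) and keeps endothelium quiet, while angiopoietin-2, released by endothelium itself, mostly weakens that signal. TIE1 binds no angiopoietin well and modulates TEK. In adult cortex the ligands other than angiopoietin-2 come largely from neurons, glia and pericytes, and the receptor kinases sit mainly on endothelium.

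Libraries held 16748754 to 17576017 expected counts. The first principal component of log2 CPM (read counts scaled to a common library total), with 32.4% of the variance, set AAV-GFP replicates 1 and 2 apart from the other 4 libraries. AAV-GFP replicate 3 had a summed level of 0.0577 CPM over 4 Y-linked genes, where each of the other libraries had at least 116 CPM. The former is the level of female tissue, and the latter shows RNA of male tissue. Markers of tissues other than cortex, 1 of them (intestine) not next to it, also differed between libraries of 1 group. The summed level of 8 choroid plexus markers ran from 45.3 to 553 CPM in AAV-GFP-GA and from 243 to 1150 CPM in AAV-GFP. Over the 15 measured intestinal epithelium markers the sum was 7.84, 8.62 and 12.1 CPM in the AAV-GFP-GA cortices, against 2.39, 2.63 and 8.02 CPM in the AAV-GFP cortices. The part of these differences in the results was not tested. A fit with a term for AAV-GFP replicates 1 and 2, known from an earlier analysis of these data, sets AAV-GFP-GA against AAV-GFP replicate 3 alone, and its values are given beside the genes they touch. In that fit sex and group cannot be told apart, since this lone library is the one nearly without Y-linked reads. The SE and p of that fit assume that this lone library varies like the others. The markers that define the labelled tissue were present, among them Snap25 and Slc17a7 of neurons at 3980 ± 221 and 1670 ± 77.3 CPM in AAV-GFP-GA and 3940 ± 96.4 and 1530 ± 106 CPM in AAV-GFP (SD, n = 3 per group).

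All 6 receptors had a higher mean in AAV-GFP-GA cortex (Nrp1 not without AAV-GFP replicate 3 or replicate 2 of AAV-GFP-GA), with Tie1 1.63-fold and Flt1 1.33-fold above AAV-GFP, whereas the main ligand Vegfa was at 0.860-fold. By edgeR's quasi-likelihood test, adjusted over all 14324 genes tested, 0 of the 10 genes passed at 0.05, against 0.0209% of all genes. At an unadjusted p under 0.05 there were 3, against 6.64% of all genes: Flt1 and Tie1 were higher, against 3.19%, and Vegfa was lower, against 3.45%. DESeq2 called 1 of the 10, Flt1, against 0.0675% of all genes, and limma-voom called 0, against 0.0209%. The 3 AAV-GFP-GA values lay above the 3 AAV-GFP values for 3 genes (Flt1, Tek and Tie1), against 6.09% of all genes. They lay below them for 1 gene (Vegfa), against 5.79%. The median log2 fold change, AAV-GFP-GA over AAV-GFP, was 0.21 over the 10 genes and -0.004 over all genes tested.

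**Figure D1:**
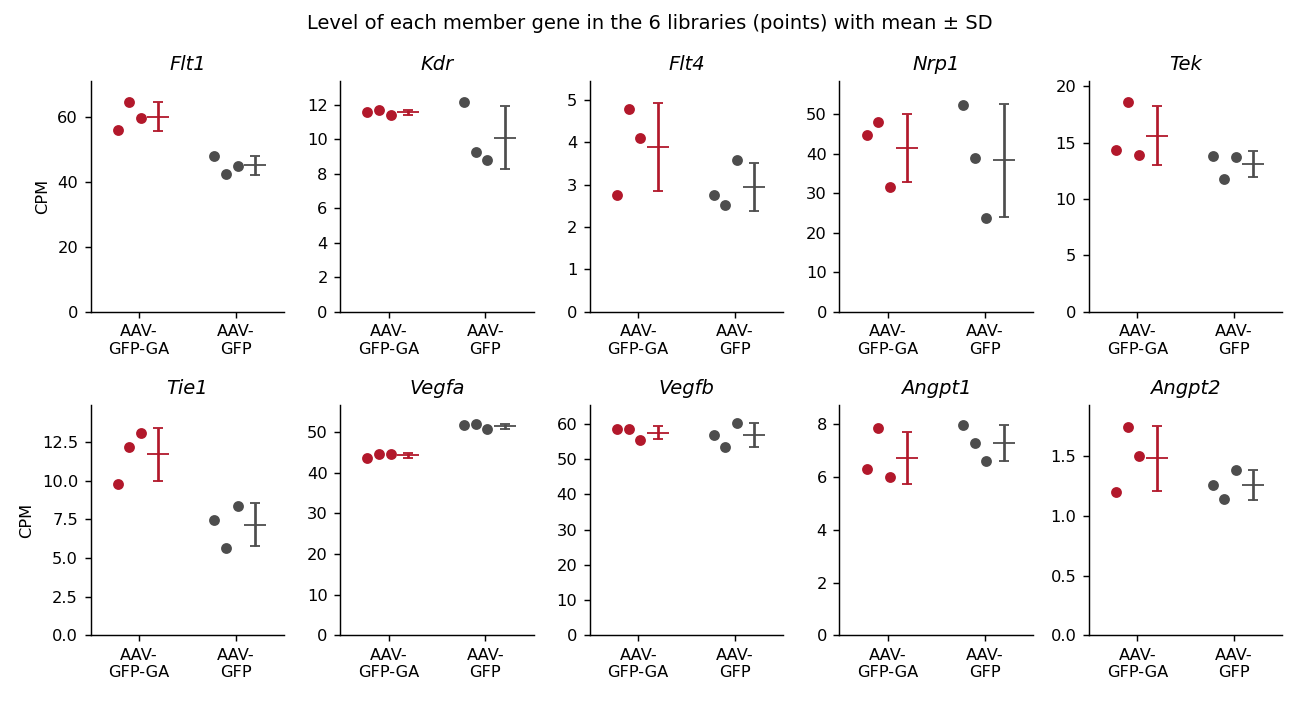
Level of the 10 genes in CPM (linear axis from 0), with 1 point per library, AAV-GFP-GA in red and AAV-GFP in grey, and the mean ± SD of 3 libraries beside the points. The groups are apart for Flt1, Tek, Tie1 and Vegfa, and Nrp1 has the widest spread within a group.

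Per kilobase of exon, Vegfb was the most abundant of the 10 transcripts, at 44.9 ± 1.42 CPM per kilobase in AAV-GFP-GA and 44.4 ± 2.62 in AAV-GFP (SD, n = 3 per group). Vegfa followed with 12.6 ± 0.170 CPM per kilobase in AAV-GFP-GA and 14.6 ± 0.180 in AAV-GFP. Nrp1 had 11.5 ± 2.40 CPM per kilobase in AAV-GFP-GA and 10.6 ± 3.98 in AAV-GFP. Vegfb stood clear of Vegfa in the 6 libraries, while the ranges of Vegfa and Nrp1 overlapped. Flt1, at 5.49 ± 0.397 CPM per kilobase in AAV-GFP-GA and 4.13 ± 0.261 in AAV-GFP, was the most abundant of the receptor kinases and lay below Nrp1 without overlap. Tek, Tie1, Kdr and Angpt1 came next, with levels over all libraries between 1.23 and 3.96 CPM per kilobase, and neighbours in this order overlapped, from Flt1 to Angpt1. Flt4 and Angpt2 were lowest, with means over the 6 libraries of 0.546 ± 0.145 and 0.385 ± 0.0635 CPM per kilobase (SD, n = 6), overlapping each other but apart from Angpt1. The lengths are the union of exons in GENCODE M21, so a gene read mainly as a short isoform, such as the soluble form of Flt1, has a higher true level than this scale gives.

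Flt1 (Entrez gene 14254, chromosome 5, 147561604 to 147726438, mm10) encodes the receptor that binds VEGF-A and VEGF-B and also a soluble form that traps them; gene-level reads do not separate the forms. It had 980, 1149 and 1037 reads (56.1, 64.8 and 59.8 CPM) in the AAV-GFP-GA cortices, against 805, 710 and 782 reads (48.2, 42.4 and 45.1 CPM) in the AAV-GFP cortices. Every AAV-GFP-GA library was above every AAV-GFP library. The means were 60.2 ± 4.35 CPM in AAV-GFP-GA and 45.2 ± 2.86 CPM in AAV-GFP (SD, n = 3 per group), a log2 fold change of 0.41 ± 0.08 (SE) with a 95% interval from 0.24 to 0.58. The adjusted p was 0.444 by edgeR, where Flt1 ranked 8 among all genes by p, and 0.0142 by DESeq2. Its log2 fold change lay between 0.36 and 0.46 over 14 alternative settings, the narrowest range among the receptors.

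Kdr (Entrez gene 16542, chromosome 5, 75932827 to 75979072), the main signalling receptor for VEGF-A, had 203, 207 and 197 reads (11.6, 11.7 and 11.4 CPM) in the AAV-GFP-GA cortices, against 204, 155 and 153 (12.2, 9.27 and 8.83 CPM) in the AAV-GFP cortices. AAV-GFP replicate 1 was the highest of the 6 libraries, so the groups overlapped, and the AAV-GFP-GA libraries lay within 1.03-fold of each other. Its log2 fold change of 0.19 ± 0.13 (SE) had a 95% interval of -0.09 to 0.48 (adjusted edgeR p 0.761). Leaving out AAV-GFP replicate 1 gave 0.35 ± 0.12 (adjusted edgeR p 0.740) and leaving out AAV-GFP replicate 3 gave 0.11 ± 0.13 (0.686). The estimate was 0.39 ± 0.17 against AAV-GFP replicate 3 alone (adjusted p 0.744 by edgeR). Flt4 (Entrez gene 14257, chromosome 11, 49609679 to 49652739), the VEGF-C receptor best known from lymphatic vessels, was counted at 48, 85 and 71 reads in the AAV-GFP-GA cortices, against 46, 42 and 62 in the AAV-GFP cortices. AAV-GFP-GA replicate 1 lay inside the AAV-GFP range on the CPM scale, and the estimate of 0.39 ± 0.24 (SE, log2) had a 95% interval of -0.13 to 0.92. It was 0.12 ± 0.31 against AAV-GFP replicate 3 alone, with an adjusted p of 0.963 by edgeR. One library moved the estimate by more than 1.5 times: it was 0.21 ± 0.26 with replicate 2 of AAV-GFP-GA left out and 0.59 ± 0.22 with replicate 1 of that group left out. The 6 lymphatic markers beside it summed to 136 to 139 CPM in AAV-GFP-GA and 114 to 151 CPM in AAV-GFP, and most of that came from Reln, Prox1 and Pdpn, which other brain cells also express. Of the other 3, Lyve1 had 17, 10 and 18 reads in AAV-GFP-GA and 14, 34 and 12 reads in AAV-GFP, Ccl21a 1 to 6 reads in AAV-GFP-GA and 3 to 6 reads in AAV-GFP, and Mmrn1 0 reads in every AAV-GFP-GA library and 0, 3 and 1 in AAV-GFP.

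Nrp1 (Entrez gene 18186, chromosome 8, 128358591 to 128505476) encodes neuropilin-1, a co-receptor of KDR for VEGF-A that in neurons binds the guidance cue semaphorin 3A. It had 780, 851 and 548 reads (44.6, 48.0 and 31.6 CPM) in the AAV-GFP-GA cortices, against 874, 649 and 410 (52.3, 38.8 and 23.7 CPM) in the AAV-GFP cortices. The spread within AAV-GFP was 2.21-fold, the widest of the 10 genes, and the groups overlapped. Between groups the log2 fold change came to 0.12 ± 0.24 (SE; adjusted edgeR p 0.935). Set against AAV-GFP replicate 3, the lowest library for this gene, it was 0.81 ± 0.23 (adjusted edgeR p 0.597). Without that library it was -0.13 ± 0.16 (0.697).

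Replicate 3 of each group, with the least Nrp1 of its group, also had the lowest level of markers of the dentate gyrus, a part of the hippocampus under the cortex. A list of 6 markers of its granule neurons, drawn up after the values were seen, summed to 77.3, 65.8 and 33.7 CPM in the AAV-GFP-GA cortices, and to 97.8, 67.3 and 30.8 CPM in the AAV-GFP cortices. The lowest library of each group was replicate 3 for both Nrp1 and this sum. Since the list was made from these values, the match is a description and not a test. Genes of other lists were also lowest in replicate 3 of each group. Neurod6 of the neuron list had 77.8 CPM there in AAV-GFP-GA and 76.9 CPM in AAV-GFP. Dcn of the fibroblast list had 16.4 and 15.1 CPM. Prox1, a transcription factor of granule neurons that is also in the lymphatic list, had 35.4, 33.3 and 21.1 CPM in the AAV-GFP-GA cortices, against 44.3, 35.2 and 16.7 CPM in the AAV-GFP cortices. Dsp, a desmosomal protein of the same neurons, had 162, 94 and 5 reads in AAV-GFP-GA and 215, 137 and 29 reads in the AAV-GFP cortices. The part of hippocampal tissue in the Nrp1 values was not tested.

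**Figure D2:**
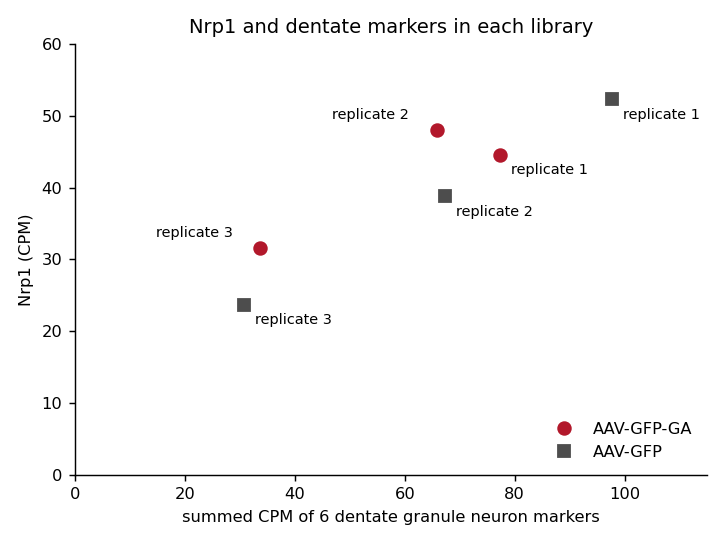
Level of Nrp1 (CPM, vertical axis) against the summed level of 6 dentate granule neuron markers (CPM, horizontal axis), 1 point per library, red circles for AAV-GFP-GA and grey squares for AAV-GFP. Replicate 3 of each group, at 33.7 and 30.8 CPM of the markers, has the lowest Nrp1 of its group, at 31.6 and 23.7 CPM. The marker list was drawn up after the values were seen.

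Tie1 (Entrez gene 21846, chromosome 4, 118471191 to 118489849), the receptor-like partner of TEK that is largely restricted to endothelium, had the largest fold difference of the 10 genes. It had 171, 216 and 227 reads (9.79, 12.2 and 13.1 CPM) in the AAV-GFP-GA cortices, against 125, 94 and 145 (7.48, 5.62 and 8.37 CPM) in the AAV-GFP cortices. The groups did not overlap, and the gap between AAV-GFP-GA replicate 1 and AAV-GFP replicate 3 was smaller than the range within either group. The means were 11.7 ± 1.71 CPM in AAV-GFP-GA and 7.16 ± 1.40 CPM in AAV-GFP (SD, n = 3 per group), a log2 fold change of 0.71 ± 0.16 (SE) with a 95% interval from 0.35 to 1.06. Tie1 ranked 26 by p, with an adjusted p of 0.684 by edgeR and 0.206 by DESeq2. The log2 fold change ran from 0.48 ± 0.21 against AAV-GFP replicate 3 alone to 0.84 ± 0.17 without that library, where the adjusted p by edgeR was 0.738 and 0.0614.

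Tek (Entrez gene 21687, chromosome 4, 94739086 to 94874976), the angiopoietin receptor, had 250, 330 and 241 reads (14.3, 18.6 and 13.9 CPM) in the AAV-GFP-GA cortices, against 231, 197 and 238 (13.8, 11.8 and 13.7 CPM) in the AAV-GFP cortices. Its groups did not overlap, but by a narrow margin, since 2 libraries of each group lay between 13.7 and 14.3 CPM. Its log2 fold change of 0.25 ± 0.13 (SE) had a 95% interval of -0.03 to 0.53 (adjusted edgeR p 0.751). AAV-GFP-GA replicate 2, the highest library, set much of it: without that library the log2 fold change was 0.11 ± 0.12, with an adjusted p of 0.950 by edgeR.

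Vegfa (Entrez gene 22339, chromosome 17, 46016993 to 46032377), the principal ligand of FLT1 and KDR, was the gene with the tightest replicates. It had 761, 792 and 772 reads (43.6, 44.6 and 44.5 CPM) in the AAV-GFP-GA cortices, against 864, 869 and 879 (51.7, 51.9 and 50.7 CPM) in the AAV-GFP cortices. Libraries of 1 group lay within 1.02-fold of each other, and every AAV-GFP-GA library was below every AAV-GFP library. The means were 44.2 ± 0.599 CPM in AAV-GFP-GA and 51.5 ± 0.633 CPM in AAV-GFP (SD, n = 3 per group), a log2 fold change of -0.22 ± 0.06 (SE) with a 95% interval from -0.35 to -0.08. Vegfa ranked 78 by p, with an adjusted p of 0.742 by edgeR and 0.994 by DESeq2, in a range from 0.0940 to 1.0 over the alternative settings. The log2 fold change stayed between -0.23 and -0.20 over the 14 alternative settings, and it was -0.20 ± 0.07 against AAV-GFP replicate 3 alone. Splice forms of Vegfa, which differ in how they bind matrix, are not separated by gene-level reads.

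Vegfb (Entrez gene 22340, chromosome 19, 6982472 to 6987651), a ligand of FLT1 but not of KDR, was counted at 1022, 1041 and 961 reads in the AAV-GFP-GA cortices, against 953, 894 and 1042 in the AAV-GFP cortices. Its groups overlapped, with means of 57.5 ± 1.82 CPM in AAV-GFP-GA and 56.9 ± 3.36 CPM in AAV-GFP (SD, n = 3 per group). The log2 fold change of 0.02 ± 0.07 (SE) had a 95% interval from -0.13 to 0.16 (0.914-fold to 1.12-fold), and it was -0.06 against AAV-GFP replicate 3 alone.

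The 2 angiopoietins were among the lower genes of the set. Angpt1 (Entrez gene 11600, chromosome 15, 42424667 to 42676977), the activating ligand of TEK, was counted at 110, 139 and 104 reads in the AAV-GFP-GA cortices, against 133, 122 and 114 in the AAV-GFP cortices. Its log2 fold change of -0.12 ± 0.15 (SE) had a 95% interval of -0.44 to 0.21, and the value was 0.03 against AAV-GFP replicate 3 alone. GENCODE M21 places an antisense gene, Gm17473, over Angpt1 exons, with up to 653 shared bases, and the part of antisense reads in the Angpt1 counts was not tested. Angpt2 (Entrez gene 11601, chromosome 8, 18690263 to 18741562), the context-dependent antagonist of TEK, was counted at 21, 31 and 26 reads in the AAV-GFP-GA cortices, against 21, 19 and 24 in the AAV-GFP cortices. Both genes overlapped between groups. At this depth the 95% interval of Angpt2, from 0.791-fold to 1.75-fold around a log2 fold change of 0.23 ± 0.26 (SE), cannot show a difference of moderate size. Leaving out replicate 2 of AAV-GFP-GA gave 0.10 for Angpt2 and -0.24 for Angpt1, leaving out replicate 1 gave 0.37 and -0.07, and leaving out replicate 3 gave 0.23 and -0.04. Without AAV-GFP replicate 1 or 3, Angpt1 was at -0.05 or -0.18. The adjusted p by edgeR was 0.877 for Angpt1 and 0.858 for Angpt2.

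**Figure D3:**
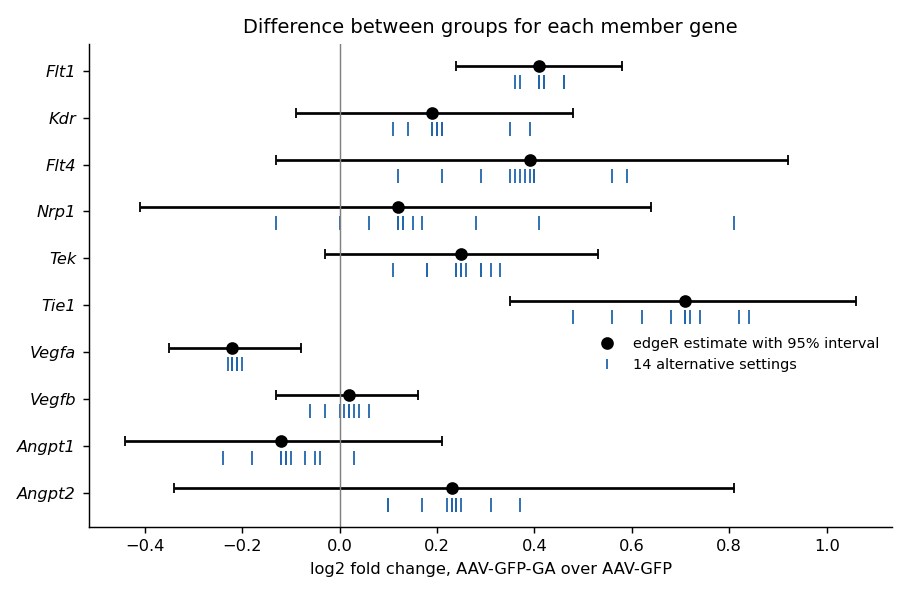
Log2 fold change of the 10 genes, AAV-GFP-GA over AAV-GFP, as the edgeR estimate with its 95% interval (black) and as the estimates under 14 alternative settings (blue marks). The intervals of Flt1, Tie1 and Vegfa lie on 1 side of 0, and the marks of Nrp1 spread from -0.13 to 0.81.

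The start-site regions of Flt1, Tie1 and Vegfa, the 3 genes with an unadjusted p under 0.05, are shown for the sequence context of the transcripts with the lowest p among the 10. Each is the stretch of 250 bases before the RefSeq start site on GRCm38.p6, in the direction of transcription, and capitals mark CACCC or its complement GGGTG, the box bound by Krüppel-like factors. Flt1 is on the minus strand at chr5:147726012-147726261, Tie1 on the minus strand at chr4:118489850-118490099 and Vegfa on the minus strand at chr17:46032378-46032627.
Flt1: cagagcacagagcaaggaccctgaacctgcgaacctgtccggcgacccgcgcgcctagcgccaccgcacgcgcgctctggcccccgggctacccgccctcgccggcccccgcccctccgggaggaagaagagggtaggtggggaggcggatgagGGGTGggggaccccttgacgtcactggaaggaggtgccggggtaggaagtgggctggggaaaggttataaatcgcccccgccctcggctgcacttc
Tie1: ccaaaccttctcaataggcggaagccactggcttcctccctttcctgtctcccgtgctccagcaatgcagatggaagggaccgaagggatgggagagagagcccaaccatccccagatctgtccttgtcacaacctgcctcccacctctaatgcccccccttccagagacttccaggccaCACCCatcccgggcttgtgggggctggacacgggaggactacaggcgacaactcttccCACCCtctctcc
Vegfa: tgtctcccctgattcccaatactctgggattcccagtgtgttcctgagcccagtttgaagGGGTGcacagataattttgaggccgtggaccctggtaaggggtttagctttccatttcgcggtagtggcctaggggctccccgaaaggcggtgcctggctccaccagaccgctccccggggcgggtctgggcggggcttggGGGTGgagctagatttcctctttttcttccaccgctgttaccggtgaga
Flt1 had 1 such box, 96 to 92 bases before the start, Tie1 had 2, the nearer at 12 to 8 bases, and Vegfa had 2, the nearer at 49 to 45 bases. RefSeq gave 9 start sites for 8 of the 10 genes, with Angpt1 and Angpt2 not in the table, and all 9 stretches held CACCC on either strand. Among all 32851 promoters of this length 52.0% held it, and among the 14599 of genes tested here 58.2%. The GC share of the 9 stretches ran from 51.2% (Tek) to 76.4% (Vegfb). The median was 52.4% over all promoters and 59.6% over those of tested genes. The part of GC content in the motif matches was not tested. GCGTG, a core of the hypoxia response element, was found in 5 of the 9 stretches (42.6% of promoters of tested genes), the other core ACGTG in 1 (20.8%), the GC box GGGCGG in 7 (55.6%) and the ETS core CCGGAA in 1 (19.5%), each counted on both strands. The ACGTG match and the GCGTG match of Vegfa lay in its second stretch, chr17:46025164-46025413, inside the gene. The bases after that start were not found in a GENCODE M21 transcript of Vegfa. The Vegfa stretch shown above held neither core, and bases further upstream than these 250 were not searched. Matches of different motifs may share bases. A match describes letters only.

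In whole cortex a different share of endothelial cells and a different amount of RNA per cell cannot be told apart, so the receptors were also set against 20 endothelial marker genes. These markers summed to 324, 384 and 338 CPM in the AAV-GFP-GA cortices, and to 305, 286 and 339 CPM in the AAV-GFP cortices. The median log2 fold change of the 20 markers was 0.19, with 18 of 20 positive, against 48.6% of all genes tested, and the single markers ran from -0.37 (Clec14a) to 0.48 (Sox18). Flt1 at 0.41 lay inside that range and Tie1 at 0.71 above it. None of the 20 passed in edgeR, 4 had an unadjusted p under 0.05 (Abcb1a, Sox18, Pecam1 and Robo4, all higher, against 3.19% of all genes) and 5 did not overlap between groups, all higher, against 6.09% of all genes. Defining markers were present, with Pecam1, the adhesion protein CD31, at 22.7 ± 1.91 CPM in AAV-GFP-GA and 18.5 ± 2.42 CPM in AAV-GFP, and Cdh5, the cadherin of endothelial junctions, at 16.0 ± 1.56 CPM in AAV-GFP-GA and 13.9 ± 1.58 CPM in AAV-GFP (SD, n = 3 per group). The 3 markers with the highest mean CPM, Itm2a, Slco1a4 and Abcb1a, had log2 fold changes of 0.00 ± 0.08, 0.14 ± 0.11 and 0.32 ± 0.10 (SE). The marker Cldn5 had -0.05 ± 0.15 (SE).

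Relative to the summed reads of these markers, Flt1 and Tie1 were still apart between groups, and the other 4 receptors were not. Since neurons also express Nrp1, its ratio to endothelial markers does not correct its level for the share of endothelium. That ratio was lowest in replicate 3 of each group, at 0.0934 in AAV-GFP-GA and 0.0698 in AAV-GFP. Flt1 had 0.173, 0.169 and 0.177 reads per marker read in the AAV-GFP-GA cortices, against 0.158, 0.149 and 0.133 in the AAV-GFP cortices. Tie1 had 0.0302, 0.0317 and 0.0387 in the AAV-GFP-GA cortices, against 0.0245, 0.0197 and 0.0247 in the AAV-GFP cortices. The difference of the mean log2 ratio was 0.24 for Flt1 and 0.55 for Tie1, each with p = 0.1 by a two-sided exact permutation test, the smallest p that 3 libraries against 3 allow, and 0.250 adjusted over the 10 ratios computed. It was 0.04 for Kdr (p = 0.900), 0.21 for Flt4 (p = 0.400), 0.07 for Tek (p = 0.600) and 0.00 for Nrp1 (p = 1.0) by the same exact test, and the groups of these 4 overlapped. With the mean log2 CPM of the markers as the base, the differences were 0.22 for Flt1 and 0.52 for Tie1.

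**Figure D4:**
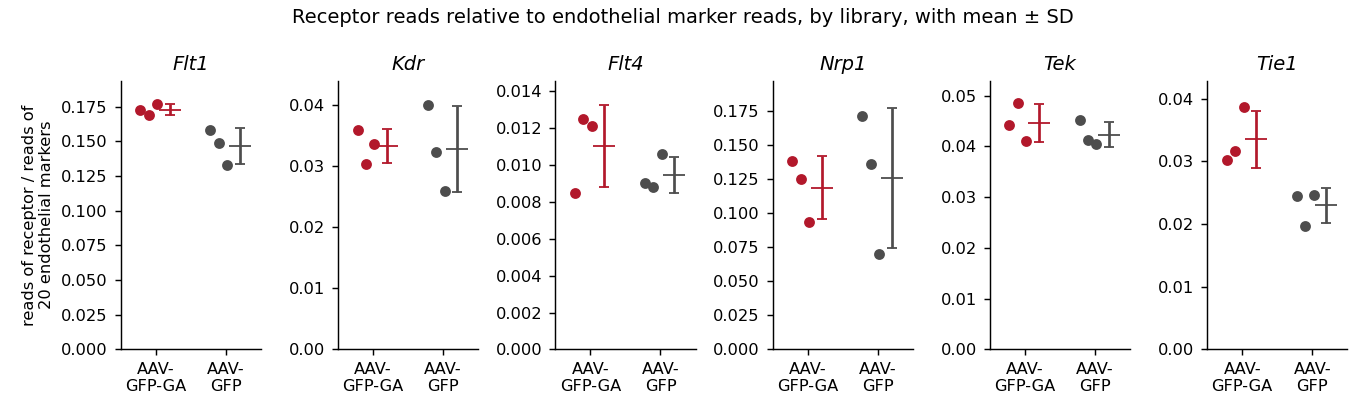
Reads of each receptor divided by the summed reads of 20 endothelial markers (linear axis from 0), 1 point per library, AAV-GFP-GA in red and AAV-GFP in grey, with the mean ± SD of 3 libraries. The groups are apart for Flt1 and Tie1 and overlap for Kdr, Flt4, Nrp1 and Tek.

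Within the pairs of ligands and receptors, library size cancels and the balance can be compared directly. Vegfa reads per Vegfb read were 0.745, 0.761 and 0.803 in the AAV-GFP-GA cortices, against 0.907, 0.972 and 0.844 in the AAV-GFP cortices. Tek reads per Tie1 read were 1.46, 1.53 and 1.06 in the AAV-GFP-GA cortices, against 1.85, 2.10 and 1.64 in the AAV-GFP cortices. Both balances were lower in every AAV-GFP-GA library, with differences of the mean log2 ratio of -0.24 and -0.47 and p = 0.1 each by the exact permutation test (adjusted 0.250 over 10 ratios). With replicate 3 of AAV-GFP-GA left out, the balance of Tek to Tie1 was -0.31 (exact permutation p = 0.2). Flt1 reads per Kdr read ran from 4.83 to 5.55 in AAV-GFP-GA and from 3.95 to 5.11 in AAV-GFP. Angpt2 reads per Angpt1 read ran from 0.191 to 0.250 in AAV-GFP-GA and from 0.156 to 0.211 in AAV-GFP. These 2 balances overlapped between groups, with differences of 0.20 and 0.35 and p = 0.200 each by the exact permutation test (adjusted 0.333). The balance of Flt1 to Kdr was 0.11 without AAV-GFP replicate 1.

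Of the other ligands, receptors and receptor partners of these systems, all 12 listed genes were in the table and 10 were tested. None of the 10 passed in edgeR, 0 had an unadjusted p under 0.05, and 6 were positive, with log2 fold changes from -0.33 to 0.28 and a median of 0.11. Vegfd and Vegfc, the ligands of FLT4, had log2 fold changes of -0.33 ± 0.23 and -0.17 ± 0.20, at means of 1.86 and 2.69 CPM in AAV-GFP-GA and 2.35 and 3.02 CPM in AAV-GFP. Ptprb, the endothelial phosphatase that dephosphorylates TEK, was at 49.6 ± 5.61 CPM in AAV-GFP-GA and 44.7 ± 3.70 CPM in AAV-GFP, and Plxnd1, a semaphorin receptor that pairs with neuropilins, at 120 ± 11.8 CPM in AAV-GFP-GA and 104 ± 13.4 CPM in AAV-GFP (SD, n = 3 per group). Nrp2, the neuropilin that pairs with FLT4, had a log2 fold change of -0.01 ± 0.11. Angpt4, a further ligand of TEK, was counted at 0, 0 and 1 reads in the AAV-GFP-GA cortices and 1, 0 and 0 in AAV-GFP, and Aplnr, the apelin receptor, was likewise too low to be tested.

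Genes that relay the signal inside the cell differed little between the group means. Of 20 tested relays of VEGF receptors and TEK, 0 passed in edgeR and 0 had an unadjusted p under 0.05, with a median log2 fold change of 0.01 and a range from -0.23 (Shb, an adaptor of KDR) to 0.21 (Nos3, endothelial nitric oxide synthase). Prkca, protein kinase C alpha and among the relays with most reads, had a log2 fold change of 0.04 ± 0.08 (SE).

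Of the genes known to be induced by VEGF in endothelium, 8 of 15 tested were positive. Of the 15 tested, 0 passed in edgeR, 2 were higher (Adamts1 and Plaur) and 1 lower (Nr4a2) at an unadjusted p under 0.05, against 3.19% and 3.45% of all genes, and the median log2 fold change was 0.03. Adamts1, a secreted protease, was at 21.3 ± 2.69 CPM in AAV-GFP-GA and 14.8 ± 3.50 CPM in AAV-GFP, and Plaur, the urokinase receptor, at 2.07 ± 0.504 CPM in AAV-GFP-GA and 1.07 ± 0.217 CPM in AAV-GFP (SD, n = 3 per group). The members with most reads, Egr1, Egr3 and Nr4a1, which neurons also express on activity, had log2 fold changes of -0.06 ± 0.10, 0.05 ± 0.10 and -0.11 ± 0.13. Dll4, the Notch ligand of sprouting tip cells, was at 2.64 ± 0.169 CPM in AAV-GFP-GA and 2.28 ± 0.167 CPM in AAV-GFP. Its log2 fold change was 0.21 ± 0.19 (SE), with an unadjusted edgeR p of 0.296. Nr4a2 was at 79.7 ± 11.0 CPM in AAV-GFP-GA and 106 ± 27.7 CPM in AAV-GFP, a log2 fold change of -0.41 ± 0.16 (SE). Its groups overlapped, with 89.0, 67.5 and 82.5 CPM in the AAV-GFP-GA cortices, against 133, 107 and 77.9 CPM in the AAV-GFP cortices. Esm1, too low to be tested, had 1, 2 and 3 reads in AAV-GFP-GA and 9, 2 and 6 in AAV-GFP.

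Genes induced by hypoxia, to which Vegfa itself belongs, had a median log2 fold change of -0.05 over 19 tested genes, with 6 positive. In edgeR 0 of them passed, with 1 higher (Slc2a1) and 1 lower (P4ha1) at an unadjusted p under 0.05, against 3.19% and 3.45% of all genes. Slc2a1, the glucose transporter of the blood-brain barrier, was at 153 ± 20.5 CPM in AAV-GFP-GA and 110 ± 18.0 CPM in AAV-GFP. Its lowest AAV-GFP-GA library had 131 CPM and its highest AAV-GFP library 130 CPM, with an adjusted edgeR p of 0.742. The most abundant glycolytic members, Pgk1 and Ldha, had log2 fold changes of 0.01 ± 0.05 and -0.06 ± 0.05, and Bhlhe40, a hypoxia-induced repressor, 0.08 ± 0.09. Among the HIF subunits and VHL, 0 of 5 passed in edgeR. Epas1, the HIF-2 alpha subunit that is abundant in endothelium, was at 179 ± 7.18 CPM in AAV-GFP-GA and 154 ± 4.2 CPM in AAV-GFP, a log2 fold change of 0.22 ± 0.06 with an unadjusted edgeR p of 0.00282 (adjusted 0.742). Hif1a had -0.06 ± 0.07, with an adjusted p of 0.877.

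**Figure D5:**
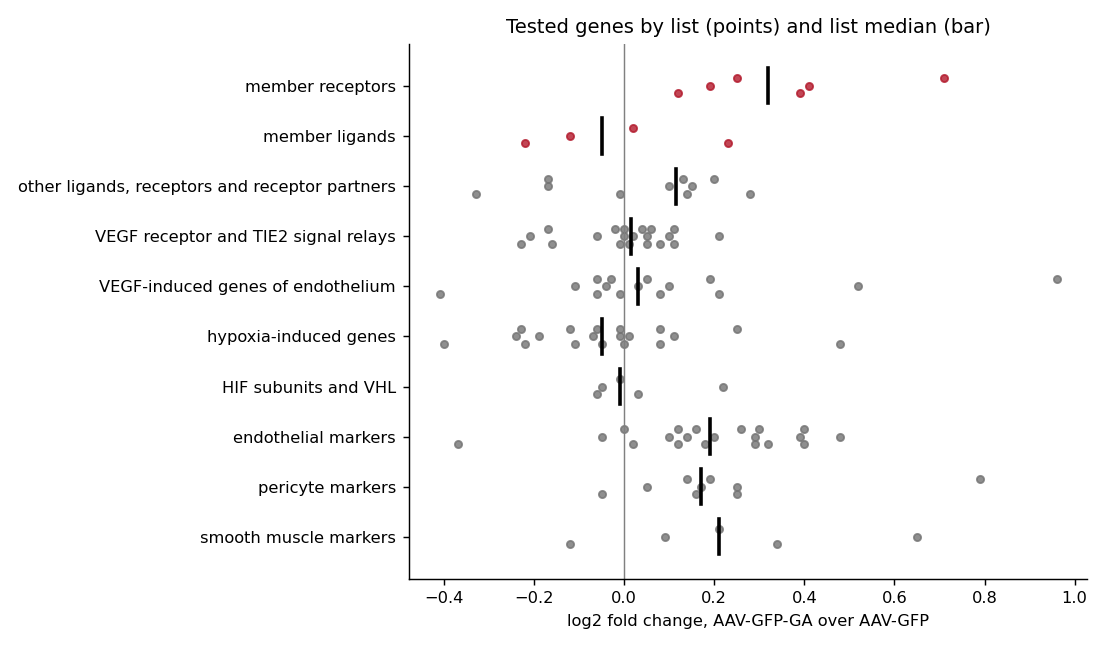
Log2 fold change, AAV-GFP-GA over AAV-GFP, of every tested gene in each list (points) with the list median (black bar), the described receptors and ligands in red. All 6 receptors lie above 0, and the endothelial markers have a median of 0.19, against 0.01 for the signal relays and -0.05 for the hypoxia-induced genes.

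The genes most like the members over the 6 libraries were found by Pearson correlation of log2 CPM among 11274 genes with a mean of at least 5 CPM. The nearest to Flt1 was Fn1, fibronectin of the vascular basement membrane and plasma (r = 0.996), followed by Sp2 and Pcdhb22 (r = 0.993 and 0.991). The nearest to Kdr was Notch1, the receptor for DLL4 (r = 0.993), then Gldc and Rere (0.987 and 0.986). The nearest to Vegfa were Cep76, Srsf2 and Smn1, with r between 0.990 and 0.991. With 6 libraries and this many genes, values near 1 are found for every member, the lowest best match being 0.984, so the list is a description of these libraries.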

How the data were processed

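RNA-seq of 6 cortex libraries was read from 1 deposited gene table. The authors deposited expected counts, made per the submitters' processing notes with Bowtie2 2.2.5, RSEM 1.2.12 and mm10. The annotation, the strand setting and whether the library kit marks strand are not named by the labels; reads from antisense partners cannot be told apart. The unit was read from the values: between 7.32% and 7.81% of entries per library were not whole. Expected counts were rounded, 1 row with no gene name (0.0% of reads) was left out and 25 symbols turned into dates by a spreadsheet were restored. Of the gene IDs, 18162 were found in the RefSeq table.

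Genes passing filterByExpr (14324) were tested with edgeR 4.0.16 in R 4.3.3: TMM scaling, the quasi-likelihood test, two-sided, AAV-GFP-GA over AAV-GFP, with Benjamini-Hochberg adjustment over all genes tested and a threshold of 0.05. The script was tested on simulated data. The biological coefficient of variation was 7.92%. Alternatives were DESeq2 1.42.0, limma 3.58.1 (voom), other scalings and filters, a replicate block, a library set term and leaving out each library. CPM values are rounded counts scaled to TMM-adjusted library sizes. Ratios of counts were tested by exact permutation over libraries. Replicate numbers were not taken to pair libraries. Over all genes tested, same-numbered libraries had correlations of their deviations of 0.103, -0.121 and 0.065, which does not exclude shared differences in single genes.

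The members and gene lists were chosen with earlier results of these data known. Named genes were the 10 members, the counts and range of the list of other ligands and receptors, the 3 genes with most reads in each other list where none passed (some are not reported here), and for each member the 3 genes nearest to it by Pearson correlation, of which those of Flt1, Kdr and Vegfa are printed. Other genes named (among them Adamts1, Plaur, Nr4a2, Dll4, Esm1, Slc2a1, P4ha1, Epas1, Pecam1, Cdh5, Cldn5, Neurod6, Dcn, Lyve1, Mmrn1, Ccl21a, Reln, Pdpn, and the dentate list with Prox1 and Dsp) were chosen after their values were seen. Promoters come from RefSeq on GRCm38.p6.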

Additional observations from a re-analysis of the deposited data

How the results depend on the processing

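Over all genes, 3 passed in edgeR, 10 in DESeq2, 9 with the library set term, and 2 to 72 when 1 library was left out, 72 being the count without AAV-GFP replicate 3 (5 without AAV-GFP replicate 1, also 5 without replicate 3 of AAV-GFP-GA). Of the 10 members, 0 passed in edgeR and 1 (Flt1) in DESeq2. Flt1, Tie1, Tek, Kdr, Flt4 and Angpt2 were positive and Vegfa negative under all 14 settings. With 1 library left out, the log2 fold change of Nrp1 ran from -0.13 (AAV-GFP replicate 3 left out) to 0.41, with -0.0033 for replicate 2 of AAV-GFP-GA, and that of Vegfb from -0.03 (AAV-GFP replicate 2 left out) to 0.06. The library set term gave -0.06 for Vegfb and 0.03 for Angpt1. When 1 library was left out, the ratio to endothelial markers ran from -0.12 to 0.19 for Kdr (-0.02 with replicate 1 of AAV-GFP-GA left out, -0.12 with AAV-GFP replicate 3 left out) and from -0.38 to 0.27 for Nrp1 (0.16 with replicate 3 of AAV-GFP-GA left out, 0.27 and 0.10 with AAV-GFP replicates 1 and 2). The cause was not tested. With the replicate number as a block, 2 genes and 0 members passed, and the adjusted p by edgeR was 0.778 for Flt1 and Tie1 and 0.818 for Vegfa. For Nrp1 the block gave a log2 fold change of 0.15 ± 0.12 (SE; adjusted edgeR p 0.840), against 0.12 ± 0.24 without it. At 19 to 31 reads per library, Angpt2 is limited by depth.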

Other observations

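Mural cells of the vessel wall gave values near those of the endothelial list. Of 9 pericyte markers 0 passed in edgeR and 8 were positive, with a median log2 fold change of 0.17, and their summed level was 259 to 303 CPM in AAV-GFP-GA and 241 to 266 CPM in AAV-GFP. The 2 with an unadjusted p under 0.05 were Vtn and Anpep, both higher, against 3.19% of all genes. Anpep, an aminopeptidase, had a log2 fold change of 0.79 ± 0.23 (SE), the highest of the list, and Vtn had 0.25 ± 0.09. Anpep was at 9.44, 10.8 and 14.2 CPM in the AAV-GFP-GA cortices, against 5.62, 4.90 and 9.35 CPM in the AAV-GFP cortices. Replicate 3 was the highest of each group for Anpep, and also for the summed intestinal epithelium markers. The part of intestinal RNA in the Anpep values was not tested. Of 5 tested smooth muscle markers 0 passed and 4 were positive, with a median of 0.21. Fibroblast markers of vessels and meninges had a median of 0.01 over 8 genes, and astrocyte and neuron markers 0.03 and 0.01 over 9 genes each.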
